A study of Mus musculus with 13 samples.

Results

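The nucleolar ribosome biogenesis genes are 45 protein-coding genes whose products make ribosomal RNA (rRNA), modify it and fold it into ribosomal subunits. They were taken by gene symbol from a table of 53465 mouse genes, and all 45 were found in it. The table holds TPM values (transcript abundances as length-corrected shares of a library) for 13 bulk polyA RNA libraries, 3 from ovaries of wild-type (WT) C57BL/6 mice and 10 from MP tumors. MP tumors are electroporation-based genetically engineered mouse model (EPO-GEMM) ovarian tumors of genotype Myc;p53-/-, raised by injecting plasmids into the ovary of WT C57BL/6 females of 8 to 12 weeks and electroporating it. The plasmids carried a MYC transposon vector, a Sleeping Beauty transposase, and Cas9 with a guide RNA against Trp53. The labels give both groups as non-treated. Electroporation reaches more than 1 cell type of the ovary and tube, tumors were collected at end point, and RNA came from whole tissue. In such bulk samples, fewer cells of a type and less RNA per cell cannot be told apart. The labels number the libraries and do not state that each came from a separate mouse, so p-values measure the spread between these libraries.

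The nucleolus forms around the rRNA genes. RNA polymerase I copies them into a long precursor, small nucleolar RNA particles (snoRNPs) guide methylation (box C/D particles) or pseudouridine formation (box H/ACA particles) on it, and large sets of assembly factors then cut and fold it into the small and the large subunit. The transcription factor MYC is known to drive many genes of this pathway, and enlarged nucleoli are a long-known trait of fast-growing tumor cells. Because the pathway has ordered steps, the 45 genes were sorted by role into 6 groups: RNA polymerase I transcription (7 genes), abundant nucleolar proteins (5), box C/D snoRNP proteins (4), box H/ACA snoRNP proteins (4), small subunit assembly (9) and large subunit assembly (16).

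Recovered read totals ran from 31445004 to 64013840 in WT ovaries and from 3892690 to 19906507 in MP tumors, so 1 read in a 1-kb gene was worth 0.0513 to 0.790 TPM, and tumor values are the less precise. TPM is a share of each library, and the 10 most abundant genes took 55.1% of it in MP2 against 7.92% to 20.6% in the other libraries. Trp53 RNA was 80.7, 85.0 and 85.4 TPM in the ovaries, 4.30 to 26.0 TPM in 9 tumors and 187 TPM in MP10. Its log2 fold change was -2.23, adjusted p = 0.0579 by limma. A small insertion or deletion need not lower RNA, so that level does not check the label of MP10. Mouse Myc RNA was 126 to 129 TPM in ovaries and 7.09 to 419 TPM in tumors, with a log2 fold change of -0.67, adjusted p = 0.654, and the MYC transgene was not analysed here. Each of the 5 granulosa, 5 luteal and 5 oocyte markers was lower in MP tumors, and the summed level of each list was lower in all 10 tumors than in any ovary. Of 4 endothelial markers 2 were lower, with a summed level below all ovaries in 10 of 10 tumors. Of 5 epithelial and 5 fibroblast markers 2 each were lower, with sums below all ovaries in 8 tumors and above them in 2. None of the 4 immune markers tested passed. Of 5 proliferation markers 2 rose and none fell, with sums of 158 to 320 TPM in ovaries and 225 to 830 TPM in tumors. The part of these shifts in cell makeup in the results below was not tested. Exons of 17 of the 45 members overlap an annotated gene on the other strand, and the sources do not say whether reads were counted by strand, so those values may include reads of the neighbor. The library names carry a series number, and 1 series holds the 3 ovaries with MP1 to MP3, while MP4 to MP6 and MP7 to MP10 carry others.

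To ask which steps of ribosome production were raised in the tumors, MP and WT libraries were compared by limma on log2(TPM + 1), with Benjamini-Hochberg adjustment over the 17277 genes that reached 1 TPM in at least 3 libraries. All 45 members passed that filter. Of them 17 rose, none fell, and 28 did not pass the adjusted threshold of 0.05. Over all genes tested, 2.51% rose and 14.3% fell. The members' median log2 fold change was 1.07, against -0.58 for all genes tested. In 16 members every tumor lay above every ovary, a pattern found for 3.02% of all genes tested. The count of rises depended on single libraries, with 7, 10 and 5 members rising without WT1, WT2 and WT3, where 0.781%, 0.886% and 0.544% of all genes rose, and 26 without MP2, where 3.68% of all genes rose. It depended on scaling as well. When TPM were rescaled by median-of-ratios factors, which bring the median of all genes to -0.02, 36 members rose, all 45 had a positive log2 fold change, and 7.37% of all genes rose. That set held 16 of the 17, all but Mrto4. Polr1a and Utp20, the 2 members with a negative log2 fold change on TPM, were positive after that rescaling.

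**Figure D1:**
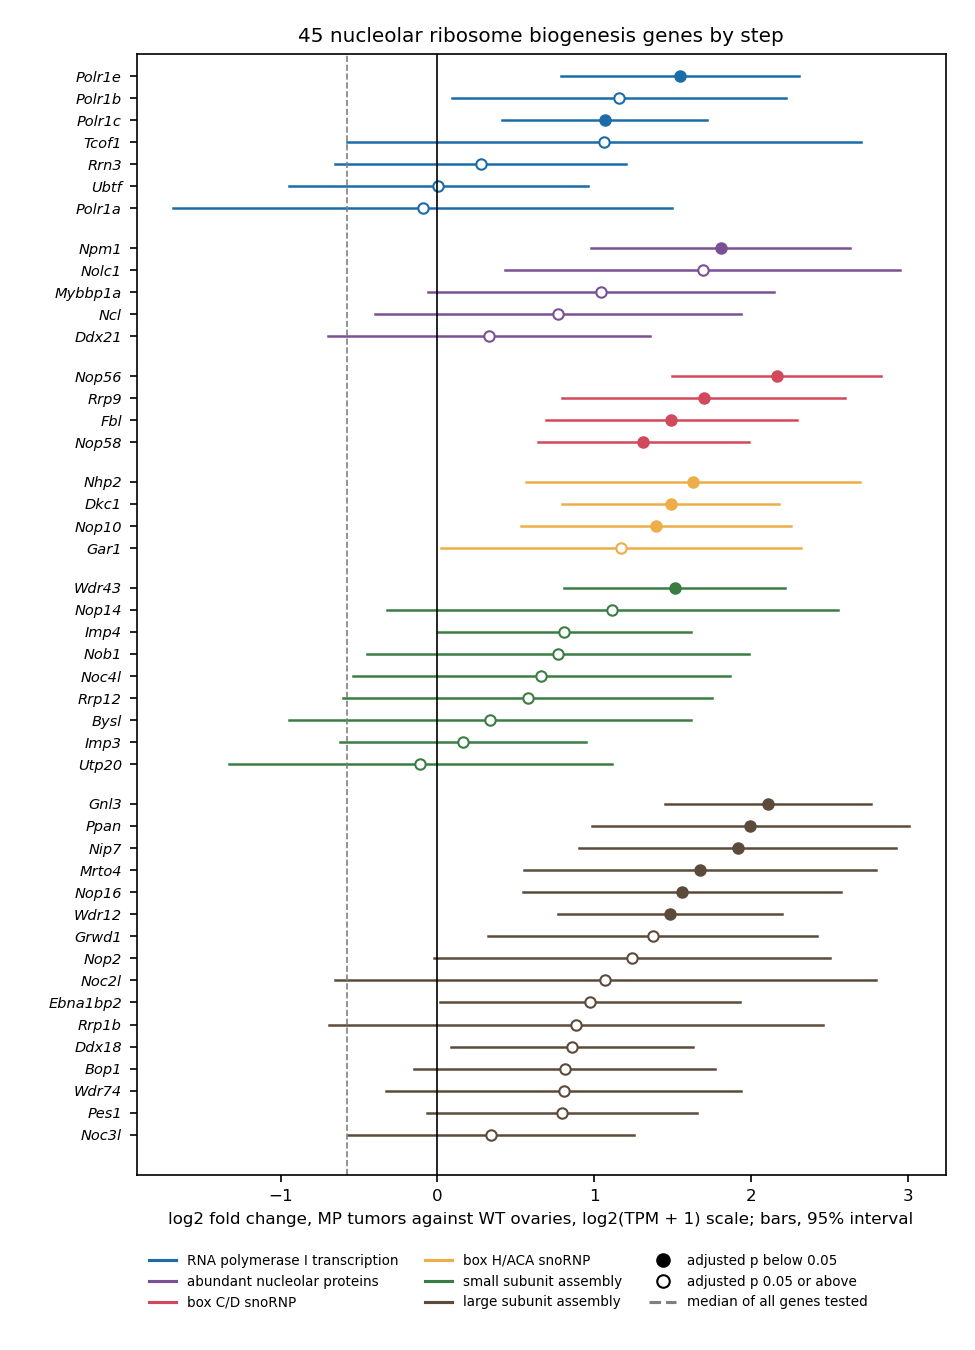
Log2 fold change of each of the 45 members, MP tumors against WT ovaries, with its 95% interval, on the log2(TPM + 1) scale and ordered by step. Filled points (17 members) passed an adjusted p of 0.05, all 4 box C/D proteins are among them, and every point lies above the dashed median of all genes tested at -0.58; Polr1a and Utp20 lie left of 0 here and right of it after median-of-ratios scaling.

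The box C/D proteins had the highest median log2 fold change of the 6 steps on TPM and the small subunit factors the lowest. Median log2 fold changes were 1.595 for box C/D, 1.44 for box H/ACA, 1.16 for large subunit assembly, 1.06 for RNA polymerase I transcription, 1.04 for abundant nucleolar proteins and 0.66 for small subunit assembly. The ranges of the steps overlapped, as box C/D members ran from 1.31 to 2.16 and small subunit members from -0.11 to 1.51, and no test was made between steps. After median-of-ratios scaling the medians were 2.30, 2.15, 1.86, 1.75, 1.76 and 1.36 in the same order. With the length trend over all genes removed they were 2.34, 1.78, 1.84, 1.61, 1.90 and 1.35, so box C/D stayed first and the small subunit last while box H/ACA, the step with the shortest genes (median 1430 bases), fell below large subunit assembly and abundant nucleolar proteins. After quantile normalization box C/D was first at 2.13, box H/ACA was at 1.67, below large subunit assembly at 1.76, and abundant nucleolar proteins were last at 1.33. In MP1 to MP3 against the ovaries of their series the order turned at both ends. Box H/ACA was first and RNA polymerase I transcription last, at 1.48 and -0.42 on TPM. After median-of-ratios scaling of these libraries they kept those places, at 3.14 and 1.21. A step can also be compared with another inside a tumor, where a scaling factor nearly cancels, apart from the added 1 TPM. An effect of gene length does not cancel there and was not taken out of the values below. The median over box C/D proteins, each relative to its own WT mean, exceeded that over small subunit factors in 10 of 10 tumors, by 0.45 to 2.05 on the log2 scale. The box H/ACA median exceeded it in 10 of 10 as well, by 0.20 to 2.14. Box C/D also lay above large subunit factors in 10 of 10 tumors, by 0.13 to 1.07, and above RNA polymerase I genes in 9 of 10, the exception being MP10. Box H/ACA lay above large subunit factors in 7 of 10 tumors, not in MP6, MP8 and MP9, and above abundant nucleolar proteins in 7 of 10, not in MP6, MP9 and MP10.

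**Figure D2:**
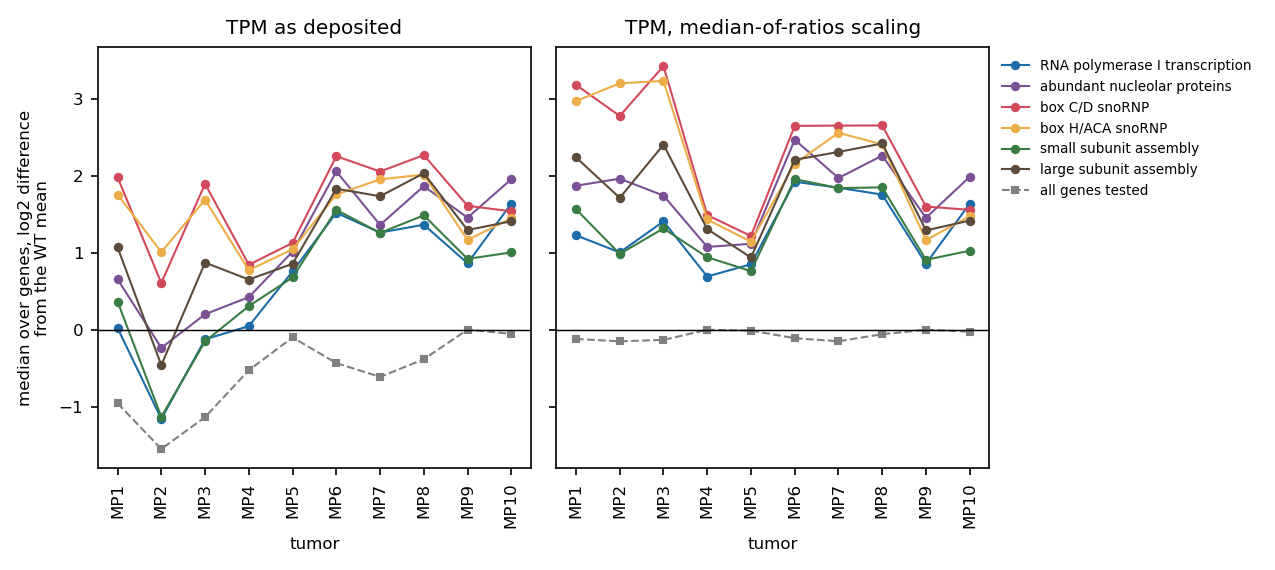
Median over the genes of each step of the log2 difference from the WT mean (y axis) in each MP tumor (x axis), on TPM as deposited (left) and after median-of-ratios scaling (right), with all genes tested as dashed grey squares. On both scales box C/D proteins (red) lie above small subunit factors (green) in all 10 tumors, while the level of MP1 to MP3 against MP4 to MP10 depends on the scale.

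RNA polymerase I transcription held 7 members, of which 2 rose. Polr1e (chr4:45018583-45036565), the subunit known as PAF53, was 13.7, 15.8 and 13.5 TPM in WT1 to WT3, and in the tumors it ran from 22.6 to 70.5 with a median of 46.5. All 10 tumors lay above the ovaries, for a log2 fold change of 1.55 ± 0.36 (SE) and an adjusted p of 0.00813. Polr1c, a subunit that RNA polymerases I and III share, was 77.1, 81.2 and 78.4 TPM in ovaries and 111 to 228 TPM in tumors, with a median of 175. It rose by 1.07 ± 0.31, adjusted p = 0.0273, again without overlap. Polr1e lost its call without WT1 and without WT3, and Polr1c lost it when any 1 of the 3 ovaries was left out.

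Polr1b, the second-largest subunit, had a log2 fold change of 1.16, adjusted p = 0.120, with 9 tumors above the ovaries and MP2 below them. The catalytic subunit Polr1a (chr6:71909053-71984935) gave a different picture. It was 39.2, 41.4 and 36.1 TPM in ovaries, while tumors spread from 6.96 to 135 TPM with a median of 57.4. MP1 to MP4 lay below all ovaries and the other 6 tumors above them, and its log2 fold change was -0.09 ± 0.75, adjusted p = 0.939. Against the ovaries of their own library series, MP1 to MP3 were lower by limma, with a log2 fold change of -1.88 and an adjusted p of 0.00232, in a comparison where 57.3% of all genes fell. After median-of-ratios scaling of the same libraries Polr1a was not called in either direction. Ubtf, which binds the rRNA gene promoter, and Rrn3, which brings the polymerase to it, had log2 fold changes of 0.01 and 0.28. Tcof1, which encodes treacle, a factor at active rRNA genes, had a log2 fold change of 1.06 with an interval from -0.58 to 2.70. The sign of Polr1a was not stable, at 0.59 after median-of-ratios scaling and, on TPM, at 0.03, 0.15 and 0.13 without MP1, MP2 and MP3. After median-of-ratios scaling 5 of the 7 rose, all but Polr1a and Ubtf.

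All 4 box C/D proteins rose, and in each every tumor lay above every ovary. Nop56 (chr2:130274430-130279313), a core scaffold protein of the particle, was 64.2, 69.7 and 53.8 TPM in WT1 to WT3 and 167 to 387 TPM in tumors, with a median of 321. Its log2 fold change of 2.16 ± 0.31 was the largest of the 45, adjusted p = 0.000186. Its lowest tumor, MP2, was still above the highest ovary, and leaving out any library kept the call. Its partner Nop58 was 42.2, 50.1 and 34.2 TPM in ovaries and 65.2 to 139 TPM in tumors, with a median of 124, and rose by 1.31 ± 0.32, adjusted p = 0.0106. Those tumors again all lay higher. Nop58, Fbl and Rrp9 each lost the call without WT1 and without WT3, which left Nop56 as the 1 called box C/D protein, and Rrp9 lost it without WT2 as well.

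Fbl, or fibrillarin, the methyltransferase of the particle, was 38.6, 44.8 and 28.3 TPM in ovaries and 54.6 to 171 TPM in tumors, with a median of 119. It rose by 1.49 ± 0.38, adjusted p = 0.0140. Rrp9, which binds the U3 snoRNA needed for early precursor cleavage, was 35.0, 38.3 and 31.9 TPM in ovaries and 43.3 to 211 TPM in tumors, with a median of 120.4. The change was 1.70 ± 0.42, adjusted p = 0.0132. MP2 was the lowest tumor for both, and it still lay above the ovaries.

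**Figure D3:**
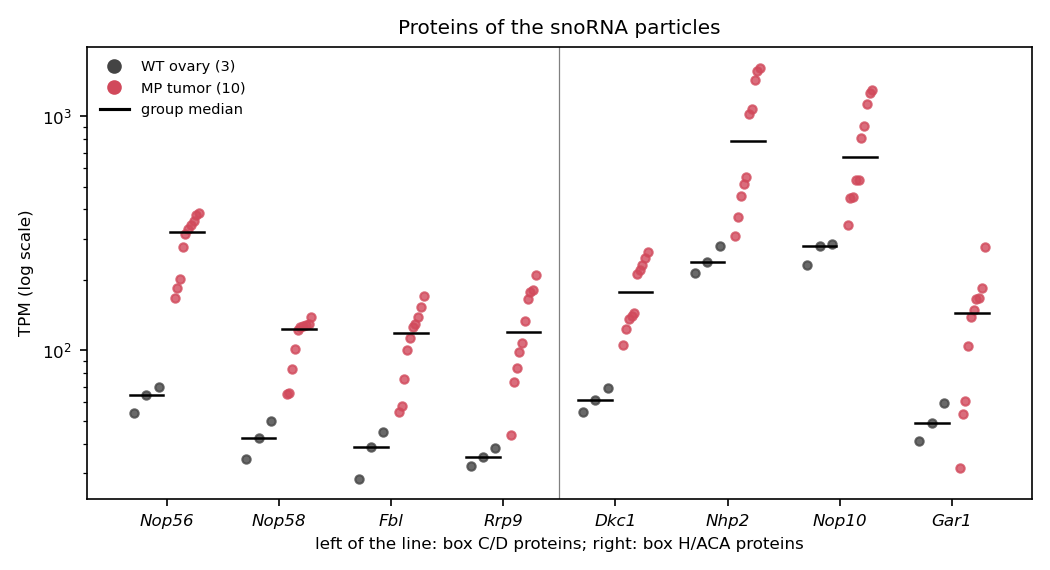
TPM (log axis) of the 8 snoRNP proteins in 3 WT ovaries (grey) and 10 MP tumors (red), points sorted within a group and bars at the group median. Every tumor lies above every ovary for 7 of the genes, and for Gar1 tumors run from 31.3 to 276 TPM around ovaries of 40.9 to 59.5 TPM.

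Of the 4 box H/ACA proteins 3 rose without overlap. Dkc1 (chrX:75095854-75109777), the pseudouridine synthase dyskerin, was 61.2, 69.0 and 54.7 TPM in ovaries and 106 to 263 TPM in tumors, with a median of 178. It rose by 1.49 ± 0.33, adjusted p = 0.00588. Nop10, a small core protein, was 279, 285 and 232 TPM in ovaries and 344 to 1300.2 TPM in tumors, with a median of 673, a rise of 1.39 ± 0.40, adjusted p = 0.0285. MP5 lay lowest for Nop10 and MP1 highest.

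Nhp2, the RNA-binding core protein, was 239.7, 279 and 214 TPM in ovaries and 308 to 1616 TPM in tumors, with a median of 786. The rise was 1.63 ± 0.50, adjusted p = 0.0369. The 2 most extreme tumors of this gene, MP1 high and MP9 low, differ in library series. Gar1, the remaining core protein, was 48.8, 59.5 and 40.9 TPM in ovaries and 31.3 to 276 TPM in tumors, with a median of 144. Its log2 fold change of 1.17 ± 0.54 did not pass, adjusted p = 0.143, as MP2 lay below the ovaries and MP3 among them. Nop10 and Nhp2 lost their calls when any 1 of the 3 ovaries was left out, and Nhp2 also without MP1, MP6, MP7 or MP8. After median-of-ratios scaling all 4 rose, but when MP2 was left out as well Nhp2 and Nop10 lost the call, which left Dkc1 and Gar1.

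Among abundant nucleolar proteins, 1 of 5 rose. Npm1 (chr11:33152287-33163206), nucleophosmin, a histone and ribosome chaperone, had the highest TPM of the members, with 743, 863 and 659 TPM in ovaries and 1225 to 4287 TPM in tumors around a median of 3019. It rose by 1.81 ± 0.39, adjusted p = 0.00527, with every tumor above every ovary. Npm1 has near-identical processed copies in the mouse genome, and how their reads were shared is uncertain. Nolc1, a chaperone of snoRNPs, was 59.2, 68.0 and 50.3 TPM in ovaries and 57.8 to 483 TPM in tumors, with a median of 229.9. MP2 lay among the ovaries and the other 9 tumors above, and the log2 fold change of 1.69 ± 0.59 missed the threshold, adjusted p = 0.0614.

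Mybbp1a, a MYB-binding nucleolar protein, had a log2 fold change of 1.04, adjusted p = 0.172, and Ncl, nucleolin, had 0.77, adjusted p = 0.332. The helicase Ddx21 was the least changed of this step, at 107, 126 and 86.3 TPM in ovaries and 62.5 to 291 TPM in tumors, with a median of 135. Its log2 fold change was 0.33 ± 0.48, adjusted p = 0.642, with 5 tumors above and 4 below all ovaries. After median-of-ratios scaling 4 of the 5 rose, all but Ddx21.

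Small subunit assembly had the fewest rises for its size, with 1 of 9 on TPM and 6 of 9 after median-of-ratios scaling. Wdr43 (chr17:71616215-71659031), a factor that joins the precursor early in its transcription, was 83.7, 94.3 and 73.2 TPM in ovaries and 144 to 327 TPM in tumors, with a median of 284. It rose by 1.51 ± 0.33, adjusted p = 0.00596, with no overlap. Imp4, a U3-associated protein, was 24.2, 23.7 and 20.9 TPM in ovaries and 16.9 to 62.4 TPM in tumors, with a median of 43.98. The tumors other than MP2 lay above the ovaries, and the log2 fold change of 0.81 ± 0.38 did not pass, adjusted p = 0.150.

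Utp20 (chr10:88746607-88826804), a large scaffold of the early particle, had the lowest log2 fold change of the members. It was 22.6, 26.1 and 18.3 TPM in ovaries and 7.39 to 68.6 TPM in tumors, with a median of 21.6. MP1 to MP4 lay below the ovaries and MP7 to MP10 above, for a log2 fold change of -0.11 ± 0.57, adjusted p = 0.906, and of 0.57 after median-of-ratios scaling. Against the ovaries of their series, MP1 to MP3 were lower, with a log2 fold change of -1.08 and an adjusted p of 0.0134, where 57.3% of all genes fell. After median-of-ratios scaling of the same libraries Utp20 had a positive log2 fold change and was not called. The other small subunit factors did not pass either, with log2 fold changes from 0.16 for Imp3 to 1.11 for Nop14. Nop14 reached 889 TPM in MP10, where no other tumor exceeded 157 TPM. Nob1, the endonuclease of the last small subunit cut, Rrp12, an export factor, Bysl and Noc4l, both assembly factors, lay between those values.

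Large subunit assembly held 16 members, of which 6 rose and none had a negative log2 fold change. Gnl3 (chr14:31012433-31019152), the GTPase nucleostemin, was 39.9, 43.2 and 34.6 TPM in ovaries and 91.3 to 273 TPM in tumors, with a median of 177, and rose by 2.11 ± 0.31, adjusted p = 0.000208. Ppan, an early assembly factor, was 28.9, 28.6 and 24.8 TPM in ovaries and 30.8 to 228 TPM in tumors, with a median of 112, and rose by 2.00 ± 0.47, adjusted p = 0.010. In both, all tumors lay higher, though MP2 exceeded the top ovary for Ppan by less than 2 TPM. Nip7, an early precursor binding protein, was 43.1, 49.4 and 41.8 TPM in ovaries and 74.8 to 482 TPM in tumors, with a median of 173. It rose by 1.91 ± 0.48, adjusted p = 0.0130, and its highest tumors were MP3 and MP1. Nip7 lost its call when any 1 of the 3 ovaries was left out, and Ppan lost it without WT3.

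Mrto4, which holds the place of a stalk protein on the precursor particle, was 54.8, 64.2 and 48.6 TPM in ovaries and 64.9 to 555 TPM in tumors, with a median of 181. The rise of 1.67 ± 0.53, adjusted p = 0.0414, was the call closest to the threshold and was lost after median-of-ratios scaling, adjusted p = 0.0516. Nop16, another assembly factor, was 74.9, 87.2 and 71.7 TPM in ovaries and 84.1 to 429.5 TPM in tumors, with a median of 276. It rose by 1.56 ± 0.48, adjusted p = 0.0362, and was the 1 called member whose groups overlapped, by MP4. Both genes lost their calls when any 1 of the 3 ovaries was left out and without MP1, MP6, MP7 or MP8, and Nop16 also without MP3.

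Wdr12 belongs to a complex with Pes1 and Bop1 that is needed to process the large subunit precursor, and the 3 partners did not share a call. Wdr12 was 10.5, 11.9 and 9.41 TPM in ovaries and 20.04 to 42.6 TPM in tumors, with a median of 33.6, and rose by 1.48 ± 0.34, adjusted p = 0.00732, a call that was lost without WT3. Pes1 and Bop1 had log2 fold changes of 0.80 ± 0.40 and 0.81 ± 0.45, adjusted p = 0.179 and 0.219, and intervals that hold the Wdr12 value, so a difference between the partners was not shown. Pes1 rose after median-of-ratios scaling and Bop1 did not, adjusted p = 0.0508. Noc3l was the least changed factor of the large subunit, at 34.9, 32.7 and 27.1 TPM in ovaries and 13.8 to 67.3 TPM in tumors, with a median of 47.6 and a log2 fold change of 0.34 ± 0.43, adjusted p = 0.581. The other 7, Grwd1, Nop2, Noc2l, Ebna1bp2, Rrp1b, Ddx18 and Wdr74, had log2 fold changes from 0.81 to 1.37 and did not pass on TPM, while after median-of-ratios scaling Wdr74 was the 1 of them that still did not.

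The tumors differed from each other in how far the members were raised. In MP7 to MP10 all 45 members lay above all ovaries, in MP6 44 did and in MP5 41. In MP4, MP3 and MP1 the counts were 29, 28 and 36, and in MP2 17 lay above and 26 below all ovaries. Of all genes tested, 26.7% to 43.9% lay above all ovaries in MP7 to MP10, 30.5% in MP6 and 37.6% in MP5. The share was 25%, 20.6% and 24% in MP4, MP3 and MP1, and in MP2 11.6% lay above and 80.9% below. The members' median difference from the WT mean ran from -0.44 in MP2 to 1.90 in MP8 on the log2 scale. The median of all genes tested ran from -1.55 in MP2 to 0 in MP9. The difference between the members' median and that of all genes was positive in 10 of 10 tumors, from 0.96 in MP5 to 2.28 in MP8, with 1.11 in MP2. After median-of-ratios scaling the members' median ran from 0.94 in MP5 to 2.30 in MP3, so the ranking of tumors changed with the scale.

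**Figure D4:**
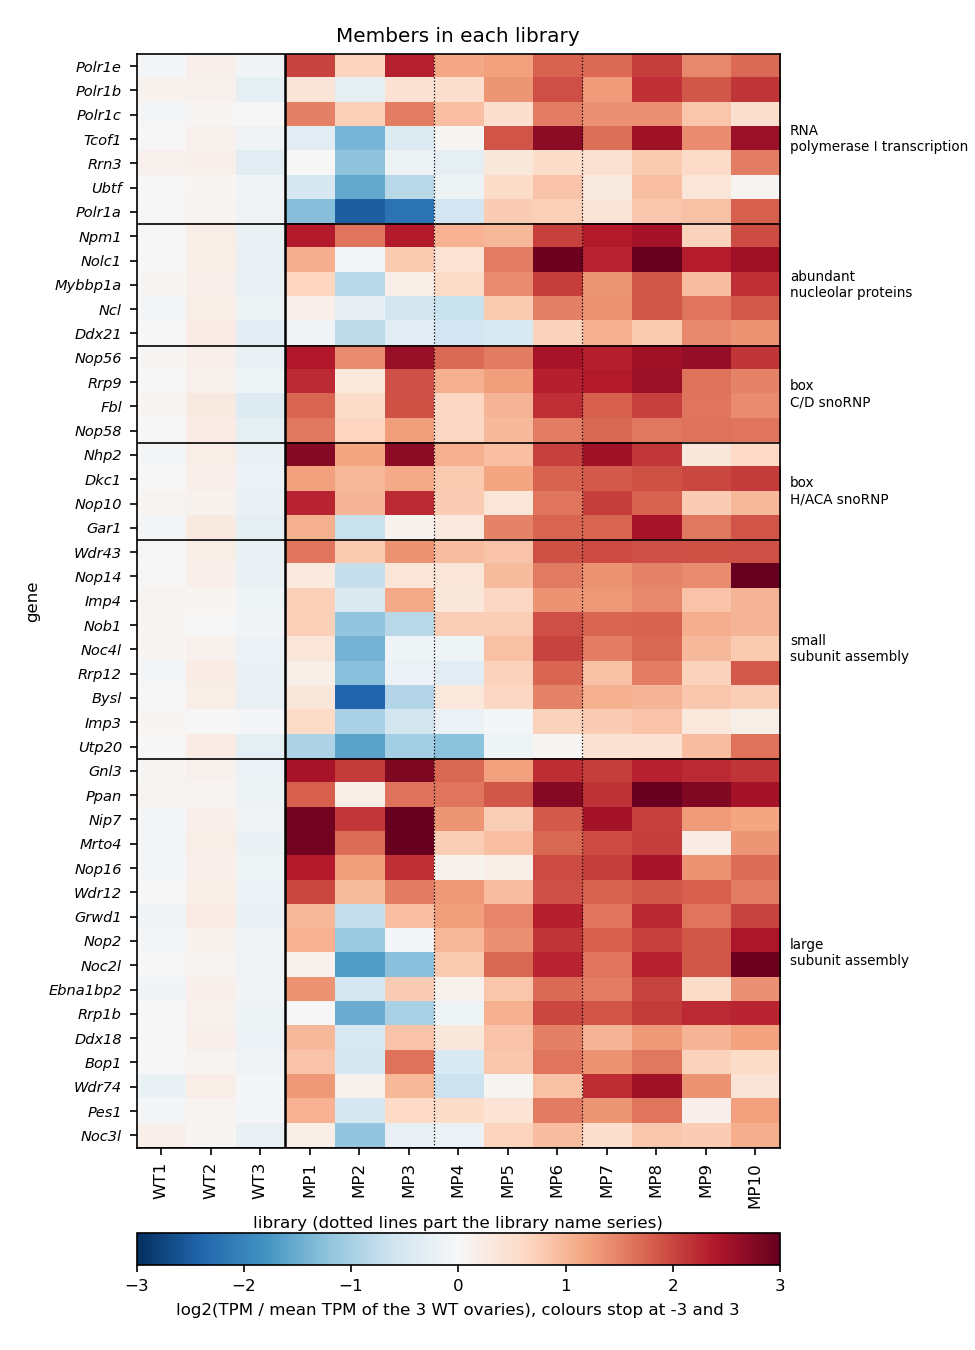
Log2 ratio of TPM to the mean of the 3 WT ovaries for each member (rows, by step) in each library (columns). MP6 to MP10 are above the WT mean nearly throughout, whereas MP2 is below it for most RNA polymerase I and small subunit genes and above it for all 4 box C/D proteins; these signs are on the TPM scale, and in MP2 the median of all genes lies at -1.55.

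Tumors MP1 to MP3, which share a library series with the ovaries, were then set against MP4 to MP10. By limma on TPM, 2 members were higher in MP1 to MP3 and 19 were lower, where 1.29% of all genes were higher and 30.1% lower. The 2 were Nip7 and Mrto4, with log2 differences of 1.25 and 1.34, adjusted p = 0.0336 and 0.0411. These counts rested on single tumors. Lower members numbered 6, 10, 12 and 11 without MP2, MP3, MP6 and MP8, where 16.4%, 20.3%, 27.9% and 27.8% of all genes were lower. No member was higher without MP1, MP3, MP5, MP9 or MP10, where 0.266% to 0.955% of all genes were, and 1 was without MP4, beside 1.24%. At such shares, counts of 0 to 2 higher members and of 6 to 12 lower members, of 45, are near the background. After median-of-ratios scaling the balance turned, with 13 members higher and 2 lower, Noc2l and Polr1a, beside 14% of all genes higher and 9.71% lower. On both scales Polr1a was lower in MP1 to MP3, by log2 differences of -2.55 and -1.29, and Noc2l too, by -2.84 and -1.52. Series and tumor cannot be told apart in this comparison. Within the series that holds ovaries, MP1 to MP3 gave 16 members higher and 2 lower than WT, Polr1a and Utp20, with 6.44% and 57.3% of all genes. After median-of-ratios scaling of the same libraries 41 were higher and none lower, with 27.1% and 31.6% of all genes. The box C/D and box H/ACA medians there were 1.44 and 1.48, while those of RNA polymerase I transcription and small subunit assembly were -0.42 and -0.37. After median-of-ratios scaling these 4 medians were 3.07, 3.14, 1.21 and 1.25. On TPM, all 16 are among the 17, the missing gene being Ppan, adjusted p = 0.0562.

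Gene length was set beside these differences. Across the 45 members, length in the table (924 to 11955 bases) and log2 fold change had a Spearman correlation of -0.17 for MP against WT and -0.30 for MP1 to MP3 against WT, with -0.30 and -0.41 across the 17277 genes tested, where genes share their libraries and are not independent. The longest members, Wdr12 and Polr1a at 11955 and 11871 bases, had log2 fold changes of 1.42 and -1.88 in MP1 to MP3, and the shortest, Imp3 and Nop10 at 924 and 1109 bases, had -0.32 and 1.85. For all 10 tumors there was no steady trend with length, as the 15 shortest, 15 middle and 15 longest members had median log2 fold changes of 1.17, 1.49 and 0.88, with 6, 8 and 3 rises. All genes tested in the same length ranges had medians of -0.36, -0.63 and -0.85, falling with length, and 3.74%, 3.03% and 1.28% of them rose. With the length trend over all genes removed, 39 members rose and none fell, beside 11.2% and 9.89% of all genes. That step also moved the median of all genes from -0.58 to 0.07, and median-of-ratios scaling, which centers all genes without using length, gave 36 rises. With the length trend removed the members' Spearman correlation with length was 0.15, and after median-of-ratios scaling it was -0.16. The part of length in the members' differences was not tested further.

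**Figure D5:**
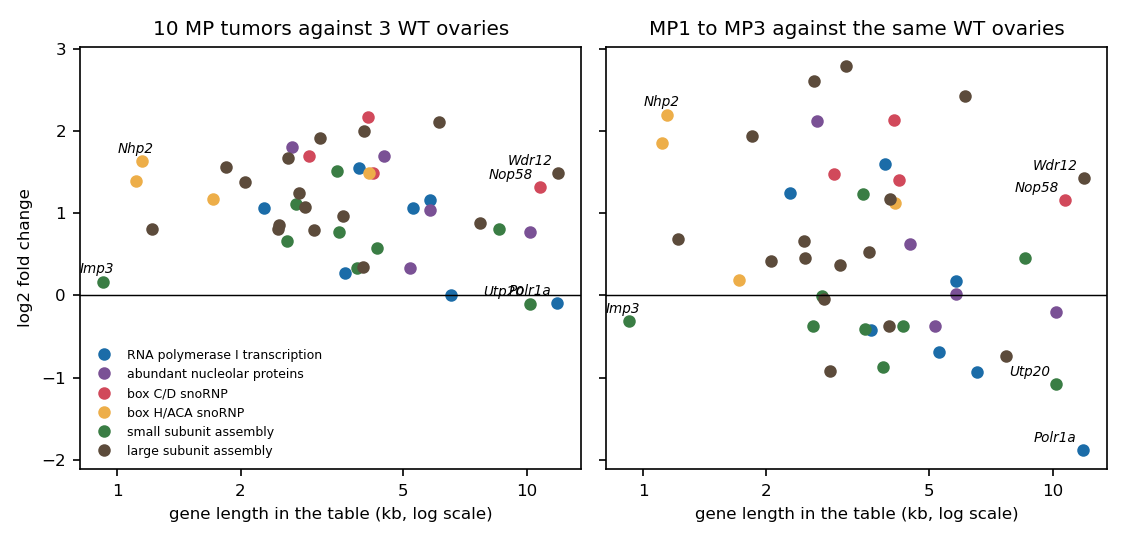
Log2 fold change of the 45 members on the log2(TPM + 1) scale against gene length in the table (log axis), for all 10 tumors (left) and for MP1 to MP3 alone (right), coloured by step. In MP1 to MP3 Polr1a at 11871 bases lies at -1.88 and Wdr12 at 11955 bases at 1.42. For all 10 tumors Polr1a is at -0.09 on TPM and at 0.59 after median-of-ratios scaling.

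A feature that the sorting did not use was set beside these results. Many snoRNAs lie inside introns of other genes and are released when the host transcript is spliced. In the GENCODE M21 annotation, 7 of the 45 members (15.6%) hold at least 1 snoRNA on their own strand, against 1.55% of the 14071 protein-coding genes tested. The 7 hosts are Nop56, Nop58, Gnl3, Ppan, Wdr43, Dkc1 and Ncl, with 5, 4, 3, 2, 3, 1 and 3 snoRNAs. Of these hosts 6 rose and Ncl did not, while 11 of the 38 other members rose, beside 2.51% of all genes tested. Among the hosts, Nop56, Nop58 and Dkc1 are also snoRNP proteins counted above. This split was not planned, and how many hosts outside the members rose was not counted. After median-of-ratios scaling the counts were 7 and 29, beside 7.37% of all genes, and without MP2 on TPM 6 and 20, beside 3.68%. Without WT1, WT2 and WT3 they were 5 and 2, 6 and 4, and 4 and 1, beside 0.781%, 0.886% and 0.544%. PolyA libraries do not measure the snoRNAs themselves. Annotated exons of Nop56, Nop58, Gnl3, Ppan and Ncl overlap a snoRNA, and how reads at those bases were counted was not examined.

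MYC binds the letters CACGTG, called the E-box, so the members' promoters were searched for it. RefSeq promoter windows of the GRCm38.p6 build, from 250 bases before to 50 after a gene's start, were found for 40 members, not for Npm1, Fbl, Bop1, Tcof1 and Rrp12. The motif reads the same on both strands. It was present in 8 of the 40 (20%), in 8.09% of all 27025 genes with a promoter, in 11.3% of genes tested and in 20% of the other ribosome production genes described below. It was present in 1 of 15 members that rose on TPM and 7 of 25 that did not, but this order turned with scaling, to 7 of 32 that rose after median-of-ratios scaling and 1 of 8 that did not. Without MP2, on TPM, it was 5 of 24 and 3 of 16. The motif was present in none of the 3 box C/D and 4 box H/ACA proteins with a window. The median log2 fold change was 0.93 in the 8 and 1.14 in the 32 others. Wdr43 is the member that rose on TPM and holds the motif, 18 bases after its start, and Rrn3, chosen after its values were seen because it alone holds 2 copies, has them 215 and 48 bases before its start. Both windows lie on the plus strand and are shown 5′ to 3′ with CACGTG in capitals, Wdr43 from chr17:71615965-71616264 and Rrn3 from chr16:13780449-13780748.
Wdr43: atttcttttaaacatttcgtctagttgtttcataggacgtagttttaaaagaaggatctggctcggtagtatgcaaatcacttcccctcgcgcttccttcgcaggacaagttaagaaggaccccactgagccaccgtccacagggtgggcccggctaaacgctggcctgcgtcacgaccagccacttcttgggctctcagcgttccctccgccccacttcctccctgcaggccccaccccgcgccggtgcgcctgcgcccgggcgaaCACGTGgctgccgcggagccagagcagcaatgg
Rrn3: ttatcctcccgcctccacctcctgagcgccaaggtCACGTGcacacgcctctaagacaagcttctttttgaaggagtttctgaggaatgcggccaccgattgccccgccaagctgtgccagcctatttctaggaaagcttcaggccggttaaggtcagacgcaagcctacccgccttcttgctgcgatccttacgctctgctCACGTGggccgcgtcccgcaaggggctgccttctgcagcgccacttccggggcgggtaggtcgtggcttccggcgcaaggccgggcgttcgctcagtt

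The remaining genes of the pathway were read from a list of 122 further ribosome production factors, of which 120 were in the table and 119 were tested. Of these 13 rose and none fell, with a median log2 fold change of 0.47, where 2.51% of all genes rose. After median-of-ratios scaling 60 rose, beside 7.37% of all genes. On TPM, 3, 4 and 3 rose without WT1, WT2 and WT3, where 0.781%, 0.886% and 0.544% of all genes rose. Without MP1, MP6, MP7 and MP8 8, 8, 7 and 7 rose, beside 2.08%, 2%, 2% and 1.93% of all genes, and 30 without MP2 and 20 without MP5, beside 3.68% and 3.08%. Within the series that holds ovaries 20 rose and 15 fell, beside 6.44% and 57.3% of all genes. Rcl1, a small subunit processing factor, was 53.5, 60.9 and 58.1 TPM in ovaries and 106 to 293 TPM in tumors, and rose by 1.82 ± 0.32, adjusted p = 0.00107. Taf1d, a subunit of the promoter factor of RNA polymerase I, was 14.8, 12.5 and 10.9 TPM in ovaries and 26.0 to 128 TPM in tumors, and rose by 2.11 ± 0.44, adjusted p = 0.00462. Exosc5, a subunit of the RNA exosome that trims rRNA ends, rose by 1.64 ± 0.36, adjusted p = 0.00571, from 15.8 to 17.2 TPM in ovaries to 30.2 to 85.9 TPM in tumors. In all 3 every tumor lay above every ovary. By step, 2 of 8 further box C/D factors rose, 3 of 14 trimming factors, 4 of 41 large subunit factors, 3 of 41 small subunit factors, 1 of 13 RNA polymerase I factors and 0 of 2 box H/ACA factors. The 2 box C/D factors were Snu13 and Nufip1, with log2 fold changes of 1.12 and 1.10, adjusted p = 0.0302 and 0.0358.

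At the other end of that list stood Baz2a, Ttf1 and Xrn2, none of which passed. Baz2a, part of a complex that silences rRNA genes, was 42.6, 40.9 and 36.4 TPM in ovaries and 1.29 to 42.0 TPM in tumors, with a log2 fold change of -1.71 ± 0.81, adjusted p = 0.156. Ttf1, which stops RNA polymerase I at the end of the gene, was 16.7 to 17.4 TPM in ovaries and 4.01 to 15.8 TPM in tumors, so every tumor lay below every ovary, as for 16.4% of all genes tested, with a log2 fold change of -0.77 ± 0.42, adjusted p = 0.212. Xrn2, a nuclease that trims rRNA from its front end, had -0.62 ± 0.36, adjusted p = 0.243. The signs of Xrn2 and Ttf1 depend on scaling, at 0.099 for Xrn2 after median-of-ratios scaling and 0.14 for Ttf1 after quantile normalization.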

How the data were processed

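RNA was polyA-selected and read as 76-base single-end reads. Per the labels' processing notes, the authors used FastQC 0.11.5, Trimmomatic 0.36, STAR 2.5.3a and featureCounts 1.6.3 on mm10 (GRCm38), and deposited TPM per gene, with gene lengths. A protocol field names other tools and a human build, which the mouse gene IDs and positions do not bear out.

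TPM were tested as log2(TPM + 1) with limma 3.58.1 (R 4.3.3, trended and robust, 2-sided), on genes of at least 1 TPM in at least 3 libraries, with Benjamini-Hochberg adjustment. The step lists, further pathway genes and 45 members were chosen with earlier results of these data known. Named were members past 0.05, the 2 highest and 1 lowest of each step by moderated statistic, and the 3 highest and 3 lowest other pathway genes. Other named genes were added after values were seen. TPM times length over the value of 1 read gave whole reads (within 0.01) for 100% of values, so reads were used for depth and limma-voom. Groups came from labels. The script was tested on simulated data.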

Additional observations from a re-analysis of the deposited data

Results flagged for a closer look

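In each group of 10 tumors, a tumor was singled out when its gap to the nearest other exceeded Dixon's critical value, as a share of the range. This held for 3 of 53 measures, and chance gives about 1 in 20.

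Nop14 in MP10 stood at 889 TPM, 5.68 times the highest other tumor. No other member reached 2 times the highest other tumor in MP10, where 5.19% of genes tested did. Its neighbors on chromosome 5 were also high there. Add1 was 565 TPM in MP10 and no more than 117 TPM elsewhere among the tumors, Mfsd10 was 541 against at most 148 TPM, and Htt was 112 against at most 23 TPM. Of the 33 other genes tested within 1 Mb of Nop14, 17 reached 2 times the highest other tumor in MP10. These neighbors were chosen after the values were seen, and the cause was not tested.

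Ppan in MP2 was low at 30.8 TPM, and Grwd1 in MP2 was low at 29.8 TPM. MP2 is also the library in which the 10 most abundant genes took 55.1% of TPM.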

How the results depend on the processing

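Rises among members numbered 36, 35, 39 and 40 with median-of-ratios scaling, quantile normalization, length trend removed and limma-voom on recovered reads, where 7.37%, 11%, 11.2% and 15.8% of all genes rose, and 41 and 35 in 2 settings added after seeing the data, median-of-ratios scaling within the shared series and without MP2, where 27.1% and 6.74% of all genes rose. The members' median log2 fold change was 1.78, 1.78 and 1.81 with median-of-ratios, length trend removed and voom, and 2.06 and 1.85 in the added settings. The other pathway genes gave 60, 75, 74 and 80 rises in the first 4 settings and 36 when rescaled without dominating genes, where 4.3% of all genes rose. Within the shared series, with series as covariate and with the replicate block, 2, 3 and 2 members and 15, 13 and 13 other pathway genes fell, where 57.3%, 49.4% and 56.9% of all genes fell, while 20 and 22 of the latter rose in the first 2. These 3 settings share 1 estimate of each fold change, MP1 to MP3 against the ovaries, so their values do not add to each other. In them, RNA polymerase I and small subunit medians were -0.42 and -0.37, and Noc3l and Ddx21 were each -0.37. Polr1a was 0.59, 0.61, 0.96, 0.60, 0.042 and 0.68 with median-of-ratios, quantile, length, voom, rescaled and median-of-ratios without MP2. Utp20 was 0.57, 0.70, 0.91, 0.61, 0.027 and 0.56 in the same settings and 0.47 with median-of-ratios within the series. Xrn2 was 0.099, 0.14 and 0.098 with median-of-ratios, length and voom, Ttf1 0.14 and 0.10 with quantile and length, and Myc 0.028 and 0.048 with median-of-ratios and voom. For MP1 to MP3 against MP4 to MP10, higher members numbered 13, 7 and 13 and lower 2, 1 and 2 with median-of-ratios, length and voom, beside 14%, 9.23% and 13.9% of all genes higher and 9.71%, 8.24% and 10.5% lower. Lower ones were 5 with quantile and 11 with no filter, beside 8.1% and 13.7% of all genes, and higher ones 1 with pseudocount 5 and 0 with no filter, beside 1.11% and 0.568%. The replicate block left 14 rises among members, beside 6.34% of all genes. Deviations of same-numbered libraries from their group means correlated at -0.096, -0.021 and 0.0012, so the numbers were not taken as pairs. Leaving out single libraries gave 5 to 26 rises among members, 3 to 30 among other pathway genes, 0 to 2 higher and 6 to 22 lower between tumor sets, and Polr1a from -0.30 to 0.15 and Utp20 from -0.30 to 0.04. Nop56, Gnl3, Npm1 and Wdr43 kept their call in every setting run, Mrto4 lost it in 10, and Nhp2 and Nop16 each in 9. Exons of Nop56, Gnl3 and Wdr43 overlap a gene on the other strand, and no setting run took that overlap into account. With 3 ovaries, calls near the threshold rest on single libraries. For changes of sign the cause was not tested.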
